A study of Mus musculus with 2 samples.

Results

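The classical and type II cadherins analysed here are *Cdh1*, *Cdh2*, *Cdh3*, *Cdh4*, *Cdh6*, *Cdh8*, *Cdh10* and *Cdh11*. These 8 genes were taken by symbol from the 31053 genes listed for each library, and all 8 had counts in both. The eye cups came from mouse embryos at e13.5 (embryonic day), with the cornea, lens and optic nerve removed, and were measured by droplet single cell RNA sequencing, which counts unique molecular identifiers (UMIs) read from the 3′ ends of transcripts. *Myrf fl/fl* eye cups were the controls. They carry the floxed alleles of *Myrf*, which encodes a membrane-bound transcription factor, and no Cre. *Rx>cre Myrf fl/fl* eye cups carry the same floxed alleles and Cre under the *Rx* promoter, which drives it in the optic vesicle that gives rise to the neural retina and the retinal pigment epithelium (RPE), and not in the mesenchyme, nerve or vessels around the eye. Each genotype was 1 library of 3 pooled samples, so no spread between replicates could be measured and no difference between genotypes was tested. Intervals below are exact 95% intervals that cover counting error only.

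Cadherins are calcium-dependent adhesion proteins that span the cell membrane. They bind cadherins on the neighbouring cell, and their cytoplasmic tails attach to the actin cytoskeleton through beta-, alpha- and p120-catenin. The type I or classical members here are *Cdh1* (E-cadherin, of epithelia), *Cdh2* (N-cadherin, of neural tissue and mesenchyme), *Cdh3* (P-cadherin, a known cadherin of the RPE and of hair follicles, mutated in hypotrichosis with juvenile macular dystrophy) and *Cdh4* (R-cadherin, named from the retina). The type II members are *Cdh6* (K-cadherin), *Cdh8*, *Cdh10* and *Cdh11* (OB-cadherin, of mesenchyme and bone). Cells that carry unlike sets of cadherins tend to sort apart, and a switch between members is a textbook step of epithelial to mesenchymal transition.

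The control library held 5432 cells with a median of 11355 UMIs after filtering, and the mutant library held 6288 cells with a median of 11163 UMIs. Of the barcodes kept, 67 occurred in both libraries. The cells formed 30 clusters, of which 23 were given to 14 classes by marker genes, each written here as "-like". The other 7 clusters, with 29.3% of control and 24.0% of mutant cells, had no clear marker set and were left unnamed. No cluster was named from the marker lists of ciliary margin, optic stalk, amacrine or horizontal cells, lens or pericytes. Clusterings with other settings did name an amacrine or horizontal class, with 44 control and 60 mutant cells at resolution 0.4. The thresholds for naming a cluster were chosen once the clusters were known. The level of a cadherin in a class is the sum of its UMIs over the cells of that class, scaled to 1000000 UMIs of the class (CPM). CPM values of different genes are not compared with each other, since UMIs at 3′ ends depend on the gene as well as on its abundance. The background of free RNA was read in red blood cell-like cells, where none of the 8 cadherins should be made. These cells were deep, with medians of 22476.5 and 22723.5 UMIs, and the background of shallow classes was not measured. Their level in either library was at most 5.67 CPM for *Cdh11*, 3.62 CPM for *Cdh2*, 1.86 CPM for *Cdh4* and 0.715 CPM for any other member.

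*Myrf* itself, the targeted gene, had 153 UMIs in 256 control RPE-like cells and 30 UMIs in 152 mutant RPE-like cells. These are 73.5 and 20.1 CPM, a log2 ratio of mutant over control of -1.83 (95% interval -2.49 to -1.30). The direction goes with the labels of the libraries, but reads from the 3′ end need not lie within the deleted part of the gene, so the value does not measure the deletion itself.

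*Cdh3* and *Cdh1* are neighbours in the genome. *Cdh3* (chr8:106510891-106557297, plus strand) ends 46.1 kb before the start of *Cdh1* (chr8:106603351-106670246, plus strand). *Cdh11* (chr8:102632095-102785642, minus strand) is on the same chromosome. *Cdh6* (chr15:13028701-13173675, minus strand) and *Cdh10* (chr15:18818947-19014236, plus strand) are 5645 kb apart, with *Cdh9* between them. All positions are those of GENCODE M21 on GRCm38, the assembly that mm10 names.

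*Cdh6* and *Cdh10* are shown with their promoters because both had their highest level in the same class, the Schwann or neural crest-like cells. The sequences run from 250 bases before to 50 bases after the RefSeq gene start on GRCm38.p6. Promoters were found for 3 of the 8 cadherins, these and *Cdh8*. Capitals mark matches to the E-box CANNTG, the core that basic helix-loop-helix factors and, in part of its forms, the SNAI and ZEB repressors of cadherins bind, and to the SOX core ACAAAG. Both strands were searched, and no marked matches overlap.
Cdh6, chr15:13173626-13173925, minus strand: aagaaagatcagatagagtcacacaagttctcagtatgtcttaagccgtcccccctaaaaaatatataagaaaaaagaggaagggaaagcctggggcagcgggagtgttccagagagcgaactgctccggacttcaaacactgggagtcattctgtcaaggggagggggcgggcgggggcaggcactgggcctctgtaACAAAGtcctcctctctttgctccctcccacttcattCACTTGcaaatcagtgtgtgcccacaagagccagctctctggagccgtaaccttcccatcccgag
Cdh10, chr15:18820079-18820378, plus strand: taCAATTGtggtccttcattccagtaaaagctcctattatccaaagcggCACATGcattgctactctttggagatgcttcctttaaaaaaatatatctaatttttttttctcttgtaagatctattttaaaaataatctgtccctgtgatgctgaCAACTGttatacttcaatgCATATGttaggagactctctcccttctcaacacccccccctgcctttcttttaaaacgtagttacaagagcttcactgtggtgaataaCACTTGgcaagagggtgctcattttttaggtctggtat
The *Cdh6* promoter had 53.0% G and C, against a median of 52.7% over 32851 promoters of the same length, and held 1 E-box and 1 SOX core. The *Cdh10* window had 37.7% G and C and held 5 E-boxes and no SOX core. It starts at 18820079, inside the gene as placed by GENCODE, which starts at 18818947. RefSeq and GENCODE thus differ in the start of *Cdh10*, and a promoter at the GENCODE start was not examined. At least 1 E-box occurred in 72.3% of all promoters, 5 or more in 2.10%, and the SOX core in 18.7%. Neither sequence held the form CACCTG, which 20.2% of promoters did. The matches describe letters in these windows only.

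The 8 cadherins differed in the classes where their levels were highest. These were surface ectoderm-like cells for *Cdh1*, RPE-like and surface ectoderm-like cells for *Cdh3*, Schwann or neural crest-like and retinal cells for *Cdh2*, retinal progenitor-like cells for *Cdh4*, and retinal progenitor-like and neurogenic precursor-like cells for *Cdh8*. *Cdh6* and *Cdh10* were highest in Schwann or neural crest-like cells, and *Cdh11* in periocular mesenchyme-like, tendon-like and retinal progenitor-like cells. The plot of levels by class shows each gene in every class of both libraries.

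**Figure D1:**
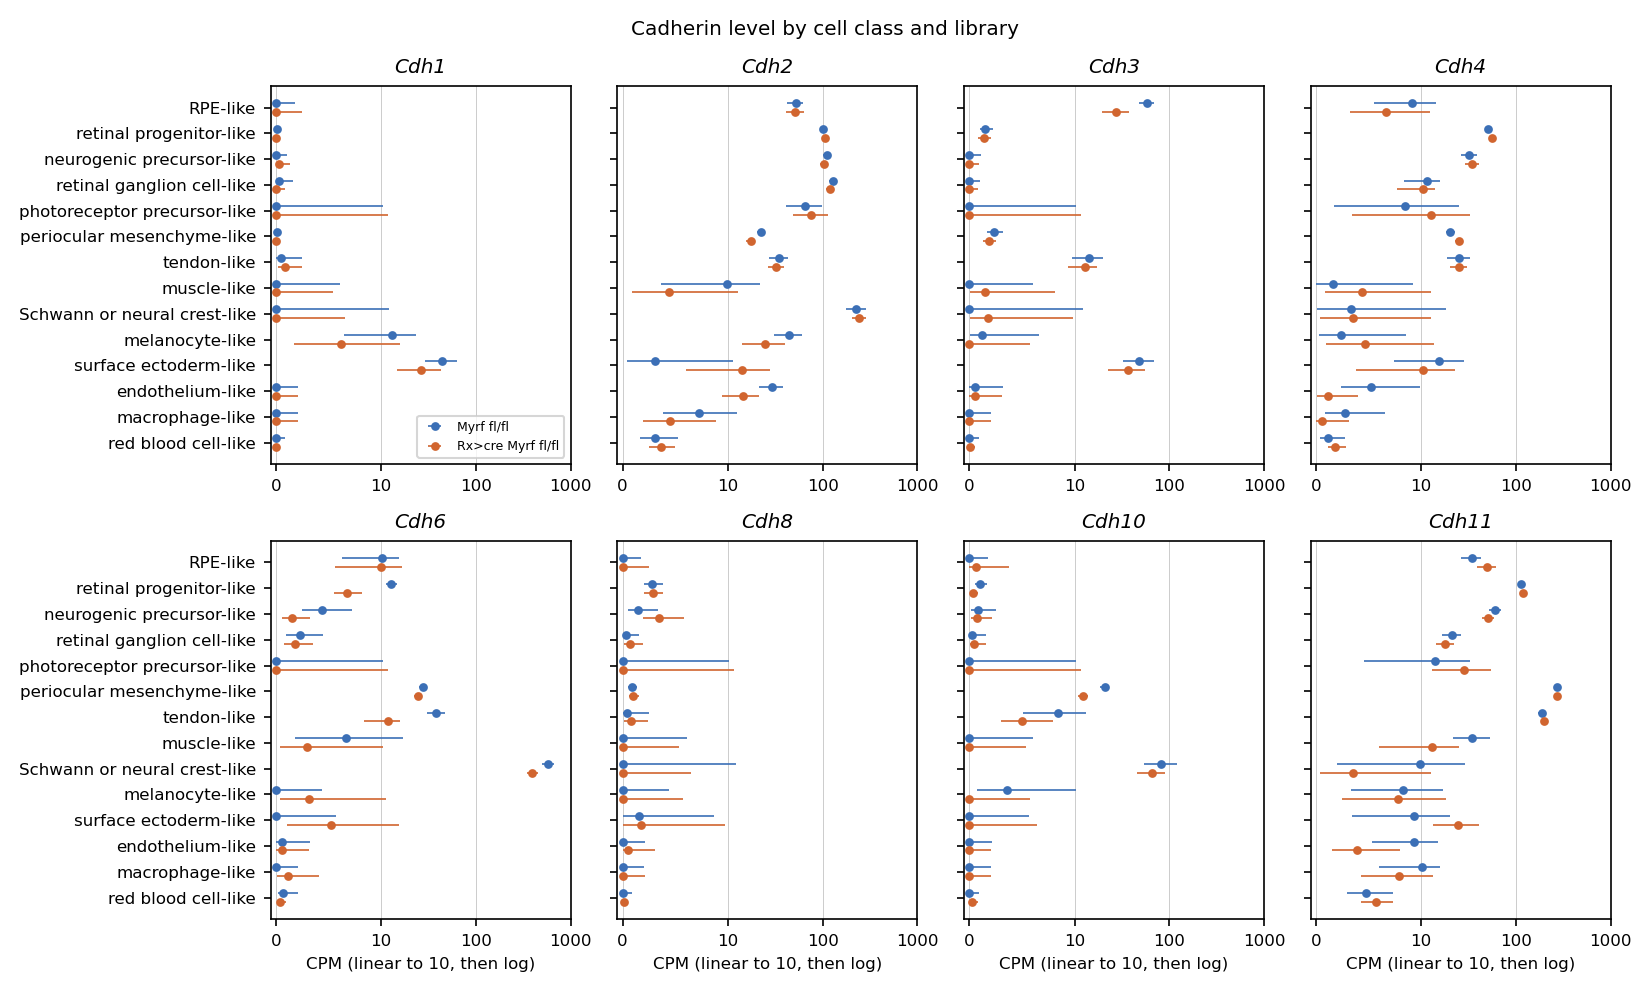
Level of each cadherin in CPM (linear up to 10, then logarithmic) in 14 marker-defined classes of the *Myrf fl/fl* library (blue) and the *Rx>cre Myrf fl/fl* library (orange). Points are class sums and bars exact 95% Poisson intervals for counting error. *Cdh6* stands at 581.5 and 392.3 CPM in Schwann or neural crest-like cells, and *Cdh11* at 273.7 and 270.9 CPM in periocular mesenchyme-like cells.

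*Cdh1* (E-cadherin) had few UMIs, 44 control and 25 mutant ones over all cells kept. Surface ectoderm-like cells, which form the outer epithelium of the eye and its lids, held 28 control and 15 mutant UMIs, or 43.4 and 26.2 CPM. Melanocyte-like cells followed with 11 and 4 UMIs, or 13 and 6.21 CPM, and the intervals of these neighbours overlapped. No other class exceeded 0.834 CPM. In RPE-like cells *Cdh1* was at 0 of 2082799 control and 0 of 1493448 mutant UMIs. Taken as 3 counts over the total, a count of 0 allows up to 1.44 and 2.01 CPM here, and the exact upper bounds are 1.77 and 2.47 CPM. At this depth the RPE, though an epithelium, had no detectable E-cadherin transcript in either library.

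*Cdh3* (P-cadherin) was the epithelial member of the RPE-like cells. Its level there was 58.1 CPM in the control (121 UMIs, 48.2 to 69.4) and 27.5 CPM in the mutant library (41 UMIs, 19.7 to 37.2). Surface ectoderm-like cells had 48.0 and 36.7 CPM, which did not stand apart from the RPE-like level. Tendon-like cells, a class marked by *Scx* and *Meox1*, came next with 14.2 and 12.8 CPM. They stood apart from surface ectoderm-like cells and from the periocular mesenchyme-like cells below them at 2.33 and 1.84 CPM. They did not stand apart from RPE-like cells, since the control tendon-like interval reached 20.1 CPM and the mutant RPE-like interval began at 19.7 CPM. *Cdh3* was at 0 UMIs in both libraries in neurogenic precursor-like, retinal ganglion cell-like, photoreceptor precursor-like and macrophage-like cells. The RPE-like cells and the neural retina, which arise from the same optic vesicle, thus differed in this gene: retinal progenitor-like cells had 1.54 and 1.36 CPM.

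*Cdh1* and *Cdh3*, neighbours on chromosome 8, shared surface ectoderm-like cells and no other class of high level. After each cell was thinned to 3000 UMIs, none of 37 control and none of 27 mutant surface ectoderm-like cells had both, with exact upper bounds of 9.49% and 12.8%. The median depth of this class was low, at 2619 UMIs per control cell and 1671 UMIs per mutant cell, so cells with both could have been missed.

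*Cdh2* (N-cadherin) had its highest level in Schwann or neural crest-like cells, the glia and neural crest derivatives around the eye, with 224.7 CPM in the control and 242.1 CPM in the mutant library. This class stood apart from all others. Retinal ganglion cell-like cells had 127.2 and 118.6 CPM, neurogenic precursor-like cells 112.2 and 103.6 CPM, and retinal progenitor-like cells 102.2 and 107.2 CPM. Between ganglion and progenitor cells the intervals did not overlap in the control (115.7 to 139.6 against 97.2 to 107.3 CPM), while they did in the mutant library (108.7 to 129.1 against 102.1 to 112.5 CPM). Photoreceptor precursor-like cells followed with 65.0 and 76.2 CPM and RPE-like cells with 51.9 and 51.6 CPM. Periocular mesenchyme-like cells, with 22.4 and 17.4 CPM, were below tendon-like cells at 34.3 and 32.2 CPM.

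*Cdh4* (R-cadherin) was highest in retinal progenitor-like cells, at 51.0 CPM (794 UMIs) in the control and 55.9 CPM (865 UMIs) in the mutant library, apart from the neurogenic precursor-like cells at 32.3 and 34.2 CPM. Retinal ganglion cell-like cells had 11.6 and 10.5 CPM. The order of the retinal classes for *Cdh4* was thus progenitor, precursor and ganglion cell. For *Cdh2* these classes did not stand apart from each other, and the ganglion cell-like clusters differed. *Cdh2* had 63.5 and 73.1 CPM in cluster 10 and 137.9 and 127.5 CPM in cluster 12. *Cdh4* had 25.8 (13.7 to 44.1) and 18.9 CPM (10.4 to 31.8) in cluster 10, and 9.26 and 8.79 CPM in cluster 12. In cluster 10 its intervals overlapped those of neurogenic precursor-like cells (26.5 to 38.8 and 28.7 to 40.4 CPM). Outside the retina, tendon-like cells had 24.9 and 25.0 CPM and periocular mesenchyme-like cells 20.3 and 24.9 CPM.

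*Cdh8* was near the detection limit, with 72 control and 97 mutant UMIs in all. Of these, 44 in each library were in retinal progenitor-like cells, or 2.82 and 2.84 CPM, and neurogenic precursor-like cells had 1.45 and 3.47 CPM. It was at 0 UMIs in RPE-like cells of both libraries.

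*Cdh6* (K-cadherin) had 176 UMIs in 22 control Schwann or neural crest-like cells and 222 UMIs in 38 mutant ones. These are 581.5 CPM (498.8 to 674.1) and 392.3 CPM (342.4 to 447.4), and the mean of the 2 libraries was 18.8 times that of the next class. At least 1 UMI was found in 95.5% of the control cells of the class and in 97.4% of the mutant ones, against 1.46% and 0.823% of red blood cell-like cells, whose median depth was higher than the 12538.5 and 13413 UMIs of the class. Periocular mesenchyme-like cells had 27.4 and 24.3 CPM, tendon-like cells 38.3 and 11.7 CPM, and RPE-like cells 10.1 and 10.0 CPM. The leading genes of this class include *Sox10* and *Foxd3*, and it rests on 22 control and 38 mutant cells.

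*Cdh10* followed the same order at the top. Schwann or neural crest-like cells had 82.6 CPM (25 UMIs) in the control and 65.4 CPM (37 UMIs) in the mutant library, apart from periocular mesenchyme-like cells at 20.9 and 12.3 CPM, and tendon-like cells had 8.46 and 5.00 CPM. In the retina it was at or below 1.03 CPM in every class. Unlike *Cdh6*, *Cdh10* had 0 control UMIs and 1 mutant UMI in RPE-like cells.

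*Cdh11* (OB-cadherin) was highest in the mesenchyme. Periocular mesenchyme-like cells had 273.7 CPM (4816 UMIs) in the control and 270.9 CPM (5755 UMIs) in the mutant library, and at least 1 UMI in 93.1% and 92.9% of cells. Tendon-like cells had 190.6 and 200.4 CPM, and retinal progenitor-like cells 113.3 and 118.4 CPM. Each of these 3 classes stood apart from the next. Along the retinal classes the level was lower in neurogenic precursor-like cells (60.1 and 50.8 CPM) and lower again in retinal ganglion cell-like cells (21.3 and 18.0 CPM), so *Cdh11* and *Cdh4* had the same order there. Schwann or neural crest-like cells, highest for 3 other members, had 9.91 and 3.53 CPM of *Cdh11* from 3 and 2 UMIs, near the background of 4.77 and 5.67 CPM.

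The red blood cell-like background was low against these levels after thinning. At 3000 UMIs per cell, *Cdh11* was found in 53.2% of 1213 control and 54.2% of 1521 mutant periocular mesenchyme-like cells, and in 1.69% and 1.70% of red blood cell-like cells. *Cdh4* was found in 12.7% of 858 control and 16.3% of 957 mutant retinal progenitor-like cells, and in 0% and 0.730% of red blood cell-like cells.

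Profiles over the 14 classes were compared by Pearson's r of log2(CPM + 10), as a description over classes that share the same 2 libraries. Among the cadherins, *Cdh6* and *Cdh10* were most alike, with r = 0.96, which rests on the Schwann or neural crest-like class. Without that class r was 0.82, below the 0.93 of *Cdh6* with *Cdh11*. *Cdh4* and *Cdh8* had r = 0.87, and *Cdh4* and *Cdh11* r = 0.81. By Spearman's rho both pairs, at 0.76 and 0.77, were above *Cdh6* and *Cdh10* at 0.70. Among genes with 200 or more UMIs, those most like *Cdh6* were *Nlgn3*, a neuroligin, at 0.981, *Cdh10* at 0.964 and *Adamts12* at 0.964. Those most like *Cdh10* were *Adamts12* at 0.979, *Gfra2*, the neurturin receptor, at 0.971 and *Cdh6* at 0.964. For *Cdh2* they were *Celsr2*, an atypical cadherin of planar cell polarity, at 0.907, *Atp6v0e2* at 0.900 and *Fzd3*, a Wnt receptor, at 0.895. For *Cdh3* they were *Clu* (clusterin) at 0.958, *Krt18*, a keratin of simple epithelia, at 0.957 and *Ntn1* (netrin 1) at 0.952. *Cdh4* was closest to *Rmst* at 0.912, *Srgap3* at 0.894 and *Dkk3* at 0.879, and *Cdh11* to *Prkg1* at 0.955, *Rnf182* at 0.928 and *Dixdc1* at 0.911. *Cdh1* was closest to *Fxyd3* at 0.938, *Gm16136* at 0.926 and *4631405K08Rik* at 0.905, and *Cdh8* to *1600027J07Rik* at 0.920, *H2-Q7* at 0.913 and *Cox4i2* at 0.909. The lists for *Cdh1* and *Cdh8* rest on few UMIs. The lists also depend on the measure: with Spearman's rho only *Celsr2*, for *Cdh2*, was again among the 3 closest genes of any cadherin.

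Some pairs of members that shared a class were compared in the same cells with the rate that their separate shares give. Of retinal progenitor-like cells thinned to 3000 UMIs, 9.32% of the control (7.46 to 11.5) and 7.42% of the mutant library (5.84 to 9.27) had both *Cdh2* and *Cdh11*, and the product of the separate shares was 8.27% and 7.32%. For *Cdh2* and *Cdh4* the shares were 3.61% and 4.81%, with products of 3.48% and 4.12%. In RPE-like cells *Cdh2* and *Cdh11* were together in 3.01% of control (0.825 to 7.52) and 5.00% of mutant cells (1.38 to 12.3), with products of 1.07% and 1.83% inside these wide intervals. For *Cdh6* and *Cdh10* the product lay outside in 1 library. In periocular mesenchyme-like cells both were present in 1.65% of control (1.01 to 2.54) and 0.394% of mutant cells (0.145 to 0.857), where the products were 0.485% and 0.181%. In the control the product lay outside the interval, and in the mutant library it lay inside.

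The sums of single members also differed between clusters of the mesenchyme. Periocular mesenchyme is neural crest-derived tissue that forms sclera, choroid stroma, corneal stroma and the anterior segment. Of its 5 clusters, cluster 8, led by *Pgf*, *Crym*, *Nrp2*, *Six2* and *Aldh1a2*, held most *Cdh10*, with 284 of 367 control and 192 of 262 mutant UMIs of the class. Its level was 100.8 and 58.2 CPM, while clusters 2, 11 and 17 had at most 5.33 CPM. *Cdh6* was also highest in cluster 8, at 65.7 and 76.7 CPM. *Cdh4* was highest in cluster 2, led by *Nbl1* and *Twist1*, at 46.4 and 45.3 CPM, and lowest in cluster 8, at 2.49 and 2.73 CPM. *Cdh11* varied least, from 192.8 to 321.0 CPM over the 5 clusters. The plot of levels by cluster shows the 4 genes side by side.

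**Figure D2:**
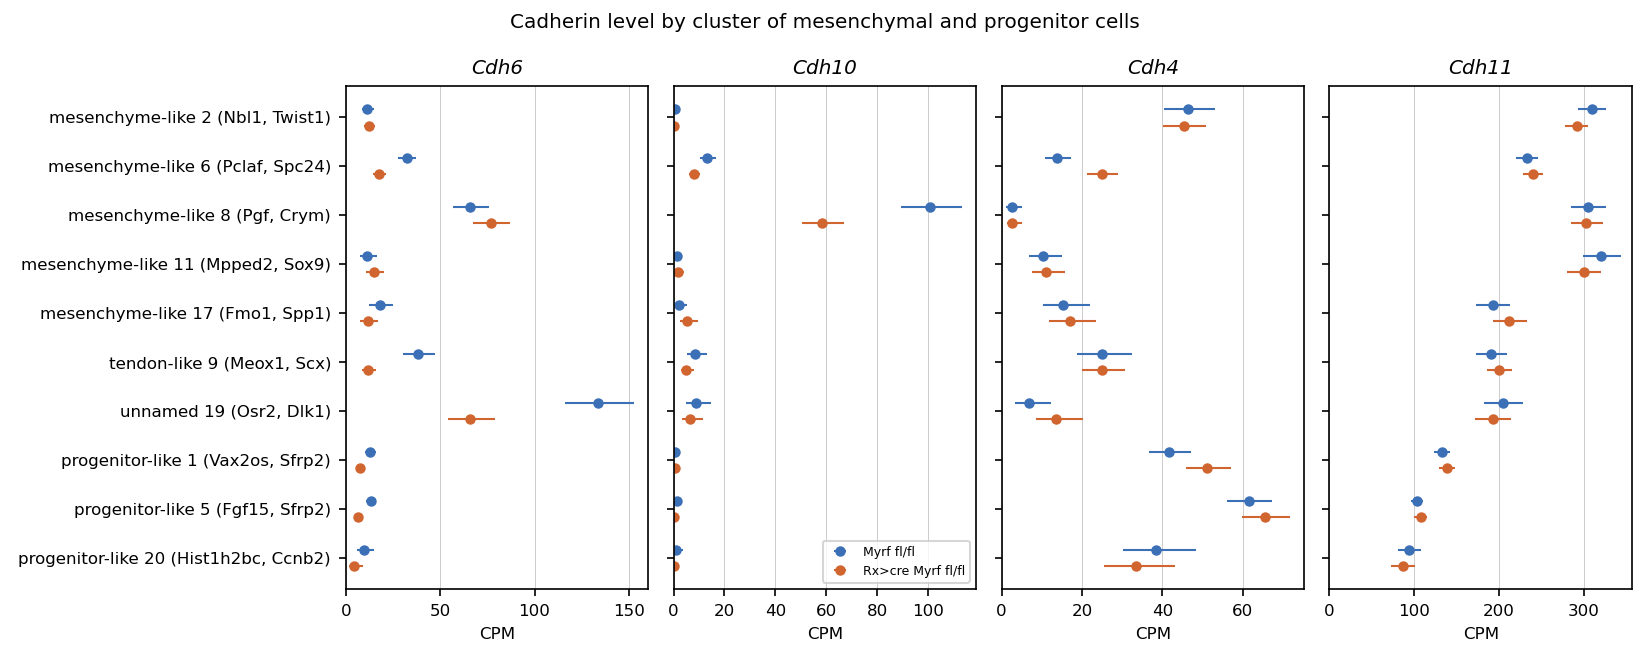
Level in CPM of *Cdh6*, *Cdh10*, *Cdh4* and *Cdh11* in the 5 periocular mesenchyme-like clusters, the tendon-like cluster, unnamed cluster 19 and the 3 retinal progenitor-like clusters, each with its 2 leading genes, for the *Myrf fl/fl* (blue) and *Rx>cre Myrf fl/fl* library (orange). Bars are exact 95% Poisson intervals. *Cdh10* reaches 100.8 and 58.2 CPM in cluster 8, and *Cdh6* reaches 133.5 and 65.8 CPM in cluster 19.

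The question between the genotypes was whether the cadherin make-up of each class differed between the libraries. A log2 ratio of mutant over control was taken, with 1 UMI added to each class sum, for the 23 pairs of cadherin and class with 100 or more UMIs. Of these, 2 were past 2-fold, *Cdh3* in RPE-like cells and *Cdh6* in tendon-like cells, both lower in the mutant library. In RPE-like cells 1 of 3 members tested was past 2-fold, against 1.71% of the 4434 genes with 100 or more UMIs there, and in tendon-like cells 1 of 4, against 0.224% of 6247 genes. None of 5 in periocular mesenchyme-like cells was past it (0.282% of genes), none of 4 in retinal progenitor-like cells (0.226%), none of 3 in neurogenic precursor-like cells (0.215%), none of 2 in retinal ganglion cell-like cells (0.211%) and none of 2 in Schwann or neural crest-like cells (1.09%).

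Intervals without 0 were common among all genes, so they were read against that background. In periocular mesenchyme-like cells 3 of 5 members had such an interval, against 19.7% of genes. In RPE-like cells the count was 2 of 3, against 23.5%. In retinal progenitor-like cells it was 1 of 4, against 15.9%, in tendon-like cells 1 of 4, against 13.8%, and in Schwann or neural crest-like cells 1 of 2, against 16.3%. No member had one in neurogenic precursor-like cells, against 13%, or in retinal ganglion cell-like cells, against 11.2%.

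**Figure D3:**
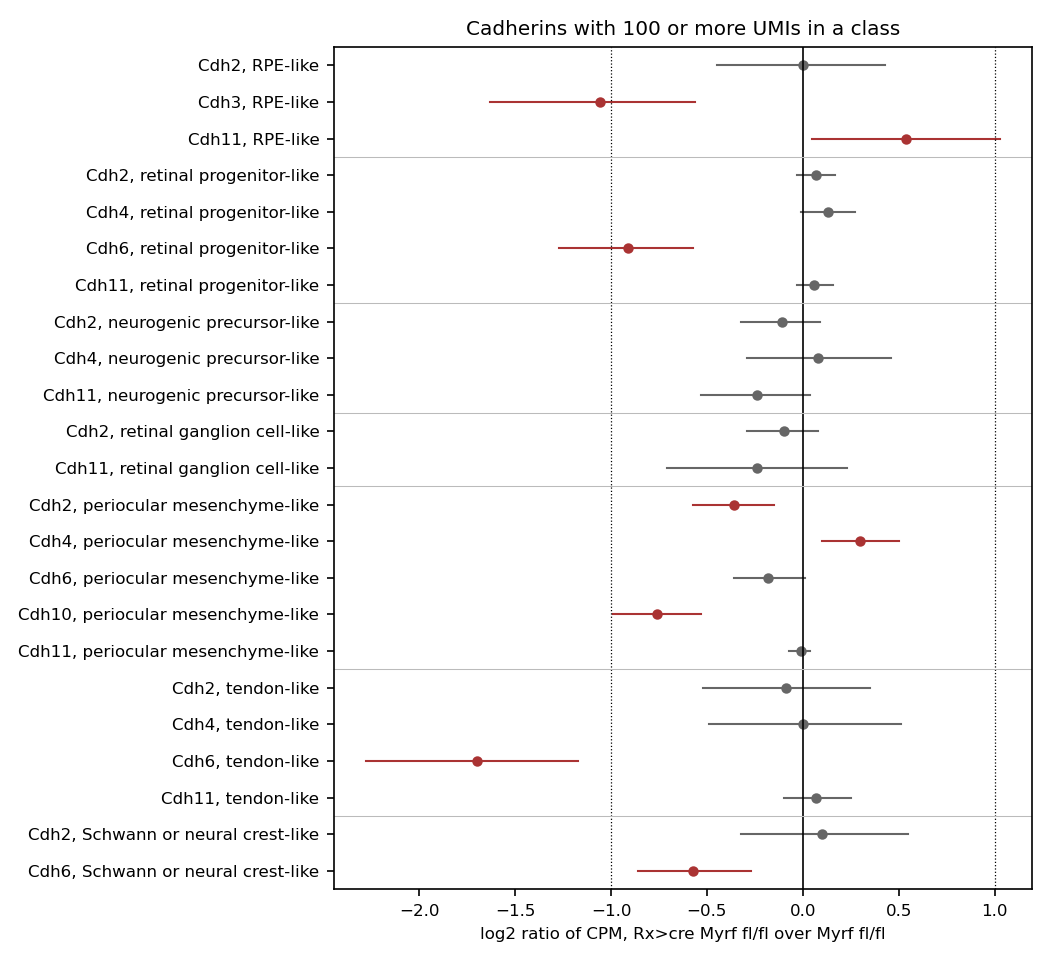
Log2 ratio of CPM, *Rx>cre Myrf fl/fl* over *Myrf fl/fl*, for each cadherin with 100 or more UMIs in a class. Bars are exact 95% intervals for counting error, red where they leave out 0, and dotted lines mark 2-fold. *Cdh3* in RPE-like cells stands at -1.06, *Cdh6* in tendon-like cells at -1.70 and *Cdh11* in periocular mesenchyme-like cells at -0.01.

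In RPE-like cells the members went in different directions. *Cdh3* had 121 control and 41 mutant UMIs, a log2 ratio of -1.06 (-1.63 to -0.56). *Cdh2*, with 108 and 77 UMIs, was at the same level in both libraries, with a log2 ratio of -0.00 (-0.45 to 0.43), so differences inside that interval could not be detected. *Cdh11*, with 71 and 74 UMIs, was higher in the mutant library by 0.54 (0.05 to 1.03). *Cdh6* (21 and 15 UMIs) had 10.1 and 10.0 CPM and *Cdh4* (19 and 10 UMIs) 9.12 and 6.70 CPM. Over the class as a whole the intervals of *Cdh3* and *Cdh2* do not overlap. The same holds in cells with 6 or more RPE markers (-1.80 to -0.67 and -0.41 to 0.53). They do overlap in each band of depth, as in cells with 2000 to 20000 UMIs (-1.85 to -0.40 and -0.49 to 0.73). They also overlap on both sides of 5% mitochondrial UMIs, with -1.72 to -0.39 and -0.56 to 0.63 above it.

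The share of RPE-like cells with *Cdh3* was also lower in the mutant library, with intervals that overlap. Of 256 control RPE-like cells 26.6% had at least 1 UMI (21.3 to 32.4), and of 152 mutant ones 21.1% did (14.9 to 28.4), at similar median depths of 3956 and 4056.5 UMIs. In cells thinned to 3000 UMIs the shares were 15% of 133 (9.43 to 22.3) and 7.50% of 80 (2.80 to 15.6). The cell with most UMIs held 4.13% of the control and 7.32% of the mutant *Cdh3* UMIs. Both *Cdh2* and *Cdh3* were read in 3.76% of the thinned control cells (1.23 to 8.56) and in 0% of the mutant ones (0 to 4.51), with products of the separate shares of 2.37% and 1.22%, so the intervals overlap and hold both products.

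The RPE-like class was uneven in depth, and its members depended on that unevenly. Its lower and upper quartiles of depth were 1050 and 15385 UMIs per cell in the control and 1202 and 16962 in the mutant library. Of the 10 RPE markers, fewer than 3 were detected in 34 control and 24 mutant cells. Cells with over 20000 UMIs held 18.4% of the class UMIs in the control (15 cells) and 48.1% in the mutant library (27 cells).

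*Cdh3* was lower in the mutant library in both of the deeper bands. Cells with 2000 to 20000 UMIs had 63.2 CPM in the control and 29.6 CPM in the mutant library, a log2 ratio of -1.04 (-1.85 to -0.40). Cells with over 20000 UMIs had 41.8 and 25.1 CPM, with an interval that spans 0 (-0.74, -1.79 to 0.33). Among cells with 6 or more RPE markers, which hold 87.3% and 88.6% of the class UMIs, the log2 ratio was -1.19 (-1.80 to -0.67). The difference was not seen among cells with at most 5% mitochondrial UMIs, where *Cdh3* had 14 and 16 UMIs, 23.9 and 20.5 CPM, and a log2 ratio of -0.23 (-1.34 to 0.93). Above 5% it was -0.99 (-1.72 to -0.39), from 71.5 and 35.0 CPM. *Myrf* was lower in the mutant library on both sides of that limit, with -2.04 (-3.32 to -1.08) and -1.46 (-2.28 to -0.83). The summed RPE markers moved with mitochondrial share too, at 8963 and 7973 CPM below the limit and 14805 and 10882 CPM above it. The part of mitochondrial share and of RPE marker level in the *Cdh3* difference was not tested.

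The higher *Cdh11* level of mutant RPE-like cells came from the deepest cells. In cells with over 20000 UMIs *Cdh11* had 14 control and 52 mutant UMIs, or 36.5 and 72.5 CPM, a log2 ratio of 0.92 (0.12 to 1.95). In cells with 2000 to 20000 UMIs it had 42 and 13 UMIs, or 26.3 and 18.3 CPM, and the ratio was -0.45 (-1.54 to 0.41). At 2000 UMIs or fewer the levels were 149.4 and 135.5 CPM from 15 UMIs in 104 control and 9 UMIs in 62 mutant cells. For comparison, red blood cell-like cells had 20 *Cdh11* UMIs in 206 control and 58 UMIs in 486 mutant cells. The part of free RNA in this band was not tested. In cells with 6 or more RPE markers, of all depths, the levels were 22.0 and 47.6 CPM and the ratio 1.10 (0.52 to 1.72). The summed periocular mesenchyme markers were at 261.0 and 245.3 CPM in the deepest band. They were at 165.1 and 100.1 CPM in the middle band and 577.7 and 376.3 CPM in the shallow band. In cells with 6 or more RPE markers they were at 180.3 and 173.1 CPM. The summed retinal progenitor markers were at 819.5 and 709.3 CPM in the deepest band and 959.3 and 729.2 CPM with 6 or more RPE markers. Whether RNA of mesenchymal or retinal progenitor cells was counted with some RPE-like cells was not tested. Over the whole class the direction of the *Cdh11* ratio rests on the cells of the deepest band, 27 of them mutant.

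**Figure D4:**
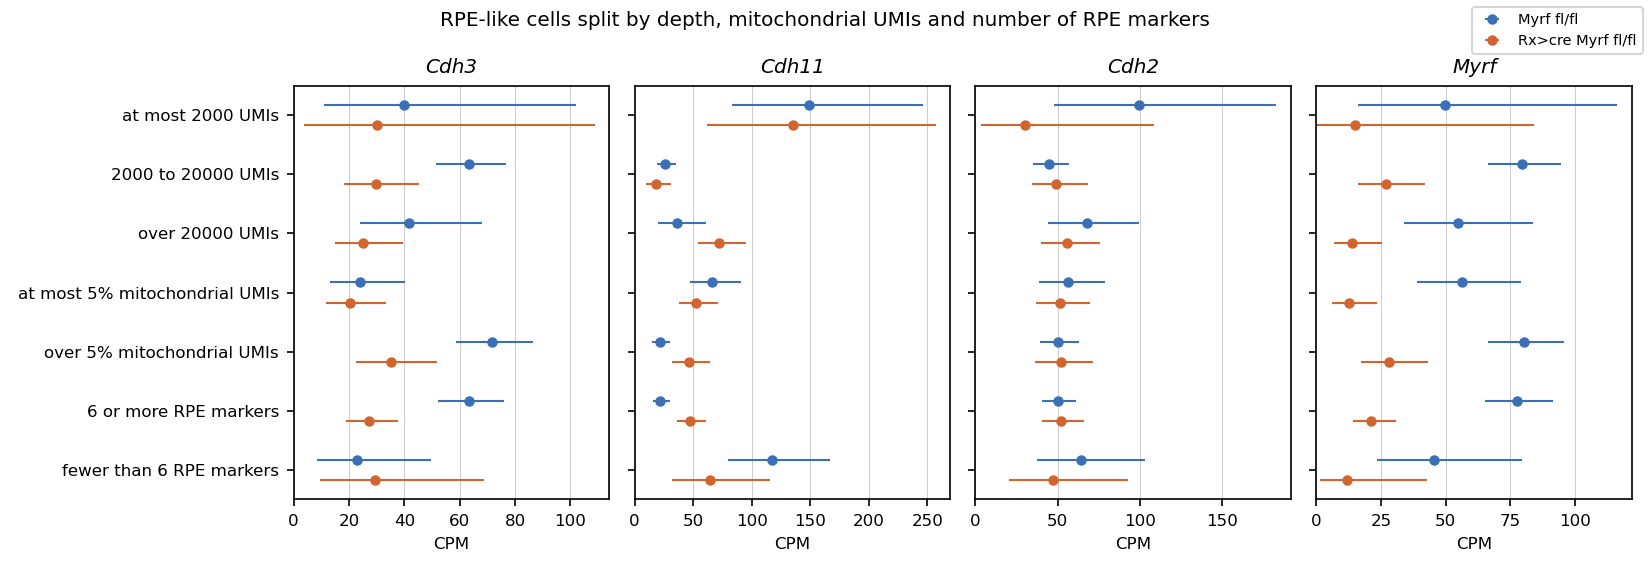
Level in CPM of *Cdh3*, *Cdh11*, *Cdh2* and *Myrf* in RPE-like cells of the *Myrf fl/fl* (blue) and *Rx>cre Myrf fl/fl* library (orange), split by UMIs per cell, by percent of mitochondrial UMIs and by number of RPE markers detected, with exact 95% Poisson intervals. *Cdh3* is lower in the mutant library in the 2 deeper bands (63.2 and 29.6 CPM, then 41.8 and 25.1 CPM), while *Cdh11* changes direction between them.

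In retinal progenitor-like cells, where *Rx>cre* also acts, the main cadherins did not differ beyond counting error over the class as a whole. The log2 ratio was 0.07 (-0.03 to 0.17) for *Cdh2*, 0.13 (-0.01 to 0.27) for *Cdh4* and 0.06 (-0.03 to 0.16) for *Cdh11*, so the intervals leave no more than 0.27 on the log2 scale. By cluster, *Cdh4* was higher in the mutant library in cluster 1, at 0.30 (0.06 to 0.54), and had 0.09 (-0.09 to 0.28) in cluster 5 and -0.20 (-0.73 to 0.31) in cluster 20. *Cdh8*, with 44 UMIs in each library, had 0.01 (-0.63 to 0.65). *Cdh6* was the exception. It had 199 control and 105 mutant UMIs, or 12.8 and 6.78 CPM, a log2 ratio of -0.91 (-1.27 to -0.57). It was lower in the mutant library in each of the 3 progenitor clusters, at -0.78 (-1.34 to -0.26) in cluster 1, -0.99 (-1.53 to -0.50) in the cycling cluster 5 and -0.99 (-2.48 to 0.18) in cluster 20. In this class 16.6% of control cells had a UMI, against 9.15% of mutant cells, at median depths of 17121.5 and 15065.5 UMIs. Thinned to 3000 UMIs, these shares were 3.50% (2.37 to 4.95) and 1.99% (1.20 to 3.08), with overlapping intervals.

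In neurogenic precursor-like and retinal ganglion cell-like cells *Cdh2* had log2 ratios of -0.11 (-0.32 to 0.09) and -0.10 (-0.29 to 0.08), and *Cdh11* had -0.24 in both (-0.53 to 0.04 and -0.71 to 0.23). The clusters of these classes differed for *Cdh11*. In neurogenic precursor-like cells it had -0.57 (-0.96 to -0.18) in cluster 14 and 0.11 (-0.31 to 0.55) in cluster 15. Leading genes of cluster 14 include *Ptf1a* and *Onecut2*, both of the amacrine or horizontal marker list. At resolution 0.4, where an amacrine or horizontal class was named, the ratio of *Cdh11* in neurogenic precursor-like cells was 0.01. In retinal ganglion cell-like cells it had 49.6 and 24.4 CPM in cluster 10, from 25 and 18 UMIs (interval of the log2 ratio -1.99 to -0.09), and a log2 ratio of 0.02 (-0.54 to 0.59) in cluster 12. *Cdh4* had 0.08 (-0.29 to 0.46) in neurogenic precursor-like cells. *Cdh6* in the neurogenic precursor-like cells had 15 control and 6 mutant UMIs, 4.36 and 1.49 CPM.

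In periocular mesenchyme-like cells, which do not come from the optic vesicle, *Cdh11* was at the same level in both libraries within narrow bounds, with a log2 ratio of -0.01 (-0.07 to 0.04). *Cdh10* was lower in the mutant library, with 367 and 262 UMIs, giving -0.76 as the log2 ratio (-0.99 to -0.53). The difference was present in its main cluster 8, at -0.79 (-1.06 to -0.52), and in the cycling cluster 6, at -0.74 (-1.29 to -0.21). With the mutant clusters weighted as in the control library it was -0.71. *Cdh2* was lower too, at -0.36 (-0.57 to -0.15), with -0.72 (-1.19 to -0.26) in cluster 2. *Cdh4* was higher, at 0.30 (0.10 to 0.50), which came from cluster 6 with 77 and 164 UMIs, where the log2 ratio was 0.84 (0.46 to 1.26). In cluster 2, where *Cdh4* was highest, the ratio was -0.04 (-0.29 to 0.23).

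*Cdh6* differed by cluster in the mesenchyme. Over all 5 clusters its log2 ratio was -0.18 (-0.36 to 0.01). It was -0.86 (-1.21 to -0.52) in cluster 6, with 32.3 and 17.7 CPM, and 0.22 (-0.05 to 0.51) in cluster 8, with 65.7 and 76.7 CPM. The intervals of these clusters do not overlap. In unnamed cluster 19, a mesenchymal cluster led by *Osr2*, *Dlk1* and *Foxl2* with 115 control and 134 mutant cells, *Cdh6* had 133.5 and 65.8 CPM, a log2 ratio of -1.01 (-1.36 to -0.68).

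Tendon-like cells had the largest difference among the 23 pairs. *Cdh6* had 86 UMIs in 177 control cells and 42 UMIs in 313 mutant cells, or 38.3 CPM (30.6 to 47.3) and 11.7 CPM (8.41 to 15.8), a log2 ratio of -1.70 (-2.28 to -1.17). A UMI was present in 20.3% and 10.5% of the cells, at median depths of 12380 and 10892 UMIs, and after thinning in 8.47% (4.82 to 13.6) and 2.88% (1.33 to 5.41). In the control library 1 cell held 19.8% of the control UMIs, and without the highest cell of each library the ratio was -1.52. At a coarser clustering the class took in further mesenchymal cells, to 395 and 556, and the ratio was -0.81. *Cdh2*, *Cdh4* and *Cdh11* had log2 ratios from -0.09 to 0.07 in the same cells, all with intervals that span 0.

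In Schwann or neural crest-like cells *Cdh6* was lower in the mutant library, at -0.57 (-0.86 to -0.27), while *Cdh2* had 0.10 (-0.32 to 0.55) and *Cdh10* -0.36 (-1.11 to 0.46). *Cdh6* was thus lower in the mutant library, with intervals below 0, in 3 of the 4 classes where it had 100 or more UMIs, and in periocular mesenchyme-like cells the interval reached 0.01. Its total over all cells kept was 20.5 CPM in the control and 14.8 CPM in the mutant library. This total also depends on the mix of cells. Red blood cell-like cells, with 0.715 and 0.391 CPM of *Cdh6*, held 4194242 of 61118485 control and 10225336 of 73167471 mutant UMIs. The part of cell mix in the total was not tested. The 4 classes share the same pair of libraries, so a difference between the libraries that is not one of genotype cannot be told apart from genotype. Of classes with fewer UMIs, endothelium-like cells had 29.0 and 14.5 CPM of *Cdh2* (50 and 26 UMIs) and muscle-like cells 34.7 and 13.1 CPM of *Cdh11* (21 and 9 UMIs).

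The catenins and other partners of cadherins were taken as a list of 18 genes. In RPE-like cells 14 had 20 or more UMIs. Of these, 11 were lower and 3 higher in the mutant library, with a median log2 ratio of -0.28, against -0.035 over the 9719 genes with 20 or more UMIs. *Nectin1*, an immunoglobulin-type adhesion protein of the same junctions, was the 1 of these 14 past 2-fold, against 5.10% of all genes with 20 or more UMIs, with 142 and 47 UMIs, 68.2 and 31.5 CPM, and a log2 ratio of -1.10 (-1.62 to -0.63). *Adam10*, a protease that cleaves cadherins, had 59.1 and 37.5 CPM (-0.64, -1.14 to -0.19), and *Afdn* (afadin), which links nectins to actin, had 61.9 and 84.4 CPM (0.45, 0.08 to 0.81). Both were chosen after their values were seen. Of the 14 partners, 1 had an interval above 0 and 2 had one below 0, against 15.9% of all genes with an interval without 0. *Ctnnb1* (beta-catenin) had 600 and 429 UMIs, at a log2 ratio of -0.00 (-0.19 to 0.18), *Ctnna1* (alpha-catenin) had -0.25 (-0.59 to 0.07) and *Ctnnd1* (p120-catenin) -0.30 (-1.20 to 0.51) from 35 and 20 UMIs. These 3 intervals span 0, and those of *Ctnna1* and *Ctnnd1* overlap that of *Cdh3*.

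In retinal progenitor-like cells 16 of the 18 partners had enough UMIs, of which 12 were lower, with a median of -0.09 and none past 2-fold (1.37% of genes). In periocular mesenchyme-like cells 17 had, of which 10 were lower, with a median of -0.00 and none past 2-fold (1.38% of genes). *Ctnnb1* was at -0.02 (-0.09 to 0.06) and -0.00 (-0.06 to 0.06) in these classes.

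Of 11 other type I and II cadherins, none reached 20 UMIs in RPE-like cells. In their known cell types *Cdh5* (VE-cadherin) had 511.6 and 463.7 CPM in endothelium-like cells, *Cdh15* (M-cadherin) 170.2 and 145.7 CPM in muscle-like cells, and *Cdh19*, a cadherin of neural crest glia, 92.5 and 100.7 CPM in Schwann or neural crest-like cells and 33.1 and 37.3 CPM in melanocyte-like cells. In periocular mesenchyme-like cells 5 of them had 20 or more UMIs, all with ratios below 0, with a median of -0.44 against -0.039 over all genes. An interval without 0 was found for 1 of the 5, against 17.6% of genes. It was *Cdh5*, named after its values were seen, at 1.25 and 0.424 CPM from 22 and 9 UMIs.

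Of 6 transcription factors of epithelial to mesenchymal transition, which repress *Cdh1* in other tissues, 3 had 20 or more UMIs in RPE-like cells. *Zeb2* had 54.7 and 37.5 CPM (-0.53, -1.03 to -0.07), *Zeb1* 13.9 and 19.4 CPM (0.48, -0.31 to 1.27) and *Twist1* 10.1 and 10.0 CPM. An interval without 0 was thus found for 1 of these 3, against 15.9% of all genes. In periocular mesenchyme-like cells *Twist1* had 627.0 and 686.8 CPM (0.13, 0.10 to 0.17), *Snai1* 51.7 and 44.9 CPM (-0.21, -0.34 to -0.07) and *Twist2* 113.4 and 117.2 CPM (0.05, -0.04 to 0.13). *Twist1* is also one of the markers from which that class was named. All 6 factors had 20 or more UMIs there, 2 higher and 4 lower in the mutant library. Their median was -0.06, against -0.039 over all genes. The interval lay above 0 for 1 factor and below 0 for 1, against 17.6% of all genes with an interval without 0.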

How the data were processed

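Single cell RNA sequencing counts of e13.5 eye cups were used, 1 library of 3 pooled samples per genotype. The submitters' processing notes name Cell Ranger 7.1.0, Seurat 4.1.1 and mm10. The authors deposited raw UMI counts per gene and barcode, not normalized, for 31053 genes, with totals of 63483835 (control) and 75228861 (mutant). Whether reads in introns were counted is not given in the sources used here.

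Barcodes with fewer than 200 genes or more than 15% mitochondrial UMIs were removed, as were doublets by Scrublet (expected 5%; 87 control and 86 mutant cells marked). Seurat 5.3.0 integrated the libraries by canonical correlation on 1990 of 2000 variable genes, left without the cadherins and their partner lists, and clustered at resolution 0.8 on 30 components. Clusters were named from marker lists where the mean log2 fold of the markers was at least 0.7 and 50% or more of them were over 2-fold. The members, lists and classes were chosen with earlier results of these data known.

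Class sums gave CPM with exact Poisson intervals, shares with exact (Clopper-Pearson) binomial intervals, and log2 ratios (1 UMI added) with exact conditional binomial intervals. All cover counting error only. Classes were called apart where the intervals of both libraries did not overlap. With 1 library per genotype there is no test. The text names all 8 cadherins, *Myrf*, for each cadherin the 3 genes of most similar profile, and of the fixed lists the members at high level in a class described or past 2-fold with 100 or more UMIs. Genes outside that rule are said to be so. Scripts were tested on simulated data. Alternatives changed the cell filters, features, integration, resolution, denominator, scale (mean log2 values per cell), thinning (1500 and 5000 UMIs) and minimum counts.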

Additional observations from a re-analysis of the deposited data

Results flagged for a closer look

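Cells outside the named classes also held cadherin UMIs above the red blood cell-like background. These clusters entered no comparison of classes, and each value is the mean CPM of the 2 libraries in the unnamed cluster where that cadherin was highest among those with 100 or more of its UMIs. *Cdh6* had 99.7 CPM in cluster 19 (*Osr2*, *Dlk1*, *Foxl2*) and *Cdh4* had 31.4 CPM in cluster 4 (*Hmmr*, *Dapl1*, *Aldh1a3*). *Cdh2* and *Cdh11* had 137.6 and 241.2 CPM in cluster 0 (*Gm26870*, *Lars2*, *Gm42418*), whose median depth was 681 UMIs per cell. The background of free RNA in cells this shallow was not measured, so the part of free RNA in the values of cluster 0 is not known. With fewer UMIs, *Cdh4* had 112.4 and 61.3 CPM in cluster 0, from 62 and 28 UMIs, lower in the mutant library (log2 ratio -0.85, -1.57 to -0.21), and *Cdh11* had 363.2 and 416.9 CPM in cluster 24, from 32 and 36 UMIs.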

How the results depend on the processing

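No paired analysis was possible because each genotype is 1 library. Of 309 recomputed log2 ratios of the 23 pairs of cadherin and class, 287 stayed within the 95% interval of the value reported and 5 reversed. With at most 2000 UMIs per cell, *Cdh2* was at -1.28 in RPE-like and -0.58 in retinal ganglion cell-like cells, and *Cdh11* in RPE-like cells at -0.08. With cells taken by a rule per cell in place of the RPE-like class, *Cdh11* was at -0.13. *Cdh11* in RPE-like cells was also at -0.20 with at most 20000 UMIs per cell, at -0.34 with at most 5% mitochondrial UMIs, and at -0.45 in cells of 2000 to 20000 UMIs. It was at 1.11 above 5% mitochondrial UMIs and at 1.10 with 6 or more RPE markers. With at most 5% mitochondrial UMIs, *Cdh3* in RPE-like cells was at -0.23, and in Schwann or neural crest-like cells *Cdh2* was at -0.48 and *Cdh6* at -0.87. At resolution 1.6 *Cdh11* in retinal ganglion cell-like cells was at 0.26, and at resolution 0.4 *Cdh6* in tendon-like cells was at -0.81. As a difference of mean log2 values per cell, a scale on which sparse genes give small numbers, *Cdh3* and *Cdh11* were at -0.116 and 0.041 in RPE-like cells, *Cdh2*, *Cdh4* and *Cdh10* at -0.053, 0.025 and -0.080 in periocular mesenchyme-like cells, and *Cdh6* at -0.254 in Schwann or neural crest-like, -0.059 in retinal progenitor-like and -0.156 in tendon-like cells. These 8 are outside the intervals of the ratios, with the direction unchanged. The causes were not tested. The rule per cell asked for at least 3 RPE markers and fewer than 2 melanocyte markers. The melanocyte list holds *Mlana* and *Tyr*, which are also leading genes of the RPE-like cluster. The rule took 176 control and 97 mutant cells, of which 77 and 39 were in the RPE-like cluster, so most of its cells were outside that class. The bands by depth above 2000 UMIs, by mitochondrial UMIs above 5% and by marker number, the removal of shared barcodes and of the highest cell, and the reweighting of clusters were chosen after the data were seen.

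Of 77 recomputed mean levels 67 stayed within the range of both intervals. Without mitochondrial, haemoglobin and ribosomal protein genes in the totals, which raises every level, *Cdh2* and *Cdh6* had 324.8 and 674.5 CPM in Schwann or neural crest-like cells, *Cdh4* and *Cdh8* 78.1 and 4.14 CPM in retinal progenitor-like cells and *Cdh11* 393.5 CPM in periocular mesenchyme-like cells. With at most 2000 UMIs per cell *Cdh4* and *Cdh8* were at 0 and 0 CPM in the few retinal progenitor-like cells left, and *Cdh11* at 373.3 CPM in periocular mesenchyme-like cells. *Cdh8* was at 4.01 CPM with at most 20000 UMIs per cell, and *Cdh11* at 255.1 CPM with at most 5% mitochondrial UMIs. Thinning depth moved 13 of 24 shares, and Spearman's rho in place of Pearson's r left at most 1 of 3 genes in each list of similar profiles. With minimums of 50 UMIs and of 1 UMI, the genes past 2-fold were 182 and 2579 in RPE-like, 41 and 2338 in Schwann or neural crest-like, 40 and 2095 in neurogenic precursor-like, 64 and 2164 in periocular mesenchyme-like, 34 and 2106 in retinal ganglion cell-like, 47 and 2068 in retinal progenitor-like and 51 and 1956 in tendon-like cells.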
